A study of Mus musculus with 6 samples.

Results

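Transcripts of 502 protein-coding genes were taken from 6 libraries of mouse embryonic stem cells, each chosen because its escaping index was lower in every Mettl3 knockout library than in both control libraries by a wide margin. The assay was mNET-seq, in which chromatin is cut with micrococcal nuclease, RNA polymerase II is immunoprecipitated and the short RNAs held by the polymerase are sequenced. The cells were of strain C57BL/6 and were grown in serum with LIF and the 2 inhibitors CHIR99021 and PD0325901, in all groups. The groups were control cells, a first Mettl3 knockout (KO1) and a second Mettl3 knockout (KO2), with 2 libraries in each. The labels do not say how the knockouts were made, whether each is 1 clone, or whether replicates came from separate cultures, so the spread between replicates may be technical. The stated purpose of the series was to examine transcription rate with and without METTL3.

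The rule was applied to the longest protein-coding transcript of each gene by genomic span. It kept a transcript when its mean control index was at least 2 and when the highest of the 4 knockout values lay at least 0.8 below the lower of the 2 control values on the log2 scale. Of 12974 protein-coding genes with such a transcript in the table, 11287 reached the control value of 2 and are called eligible here. The 502 selected genes were 4.45% of the eligible genes and 3.87% of all coding genes. The mirrored rule, with all knockout values at least 0.8 above both controls, was met by 3 eligible genes, or 0.0266%. The values of KO1 and KO2 against control therefore chose the genes, and they are given below as a description, without a test.

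RNA polymerase II commonly pauses shortly after it starts a gene and is released into productive elongation by the kinase complex P-TEFb. Indices that set the polymerase signal over the gene body against the signal near the start are used to describe this step. METTL3 is the enzyme that places N6-methyladenosine (m6A) on nascent RNA, often at sites such as GGACT. In embryonic stem cells m6A is known for its part in the turnover of pluripotency transcripts and in the regulation of chromatin-associated RNA.

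The index is deposited as log2 of a ratio within a transcript, with windows that none of the sources used here states. As a ratio it is no level of RNA or of polymerase, so the index of Mettl3 itself does not check the knockout. The cell type could not be checked by level either, although all 8 embryonic stem cell markers looked for are in the table, as are 3 of 4 fibroblast markers. The read depth of the libraries is unknown. These are bulk libraries, so fewer cells of a type and less RNA per cell cannot be told apart.

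The core promoter, where initiation is set, lies at and just upstream of the start. Windows of 150 bases before the start are therefore shown for the 6 selected genes with the widest margins whose start could be matched. Starts were matched to RefSeq (GRCm38.p6, the build of the index's annotation) within 50 bases for 304 of the 502 genes. Each sequence runs 5′ to 3′ on the gene's strand and ends at the base before the RefSeq start. Capitals mark matches to words searched on both strands and allowed to overlap. They are the GC box word CCGCCC, the CCAAT box word CCAAT, the TATA box word TATAAA and the ETS factor word CCGGAA. The others are the cAMP response element word TGACG, the E box word CACGTG, the NRF1 word GCATGCGC and the YY1 word AAGATGGC.
Furin (chr7:80402813-80402962, minus strand): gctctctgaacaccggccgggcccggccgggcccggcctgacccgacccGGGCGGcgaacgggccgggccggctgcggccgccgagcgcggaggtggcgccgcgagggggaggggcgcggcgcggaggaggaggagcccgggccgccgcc
Twist1 (chr12:33957521-33957670, plus strand): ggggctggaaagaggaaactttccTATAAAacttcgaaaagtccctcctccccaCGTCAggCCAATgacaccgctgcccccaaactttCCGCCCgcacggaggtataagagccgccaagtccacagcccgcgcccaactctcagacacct
Lrrc8b (chr5:105415625-105415774, plus strand): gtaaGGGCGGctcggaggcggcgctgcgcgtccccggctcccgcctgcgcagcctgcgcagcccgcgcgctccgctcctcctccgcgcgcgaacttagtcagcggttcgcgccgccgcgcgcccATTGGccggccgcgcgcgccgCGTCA
Uxs1 (chr1:43827840-43827989, minus strand): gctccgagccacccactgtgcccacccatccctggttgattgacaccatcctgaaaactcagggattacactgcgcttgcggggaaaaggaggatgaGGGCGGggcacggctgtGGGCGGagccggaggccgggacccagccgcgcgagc
Ctc1 (chr11:69015761-69015910, plus strand): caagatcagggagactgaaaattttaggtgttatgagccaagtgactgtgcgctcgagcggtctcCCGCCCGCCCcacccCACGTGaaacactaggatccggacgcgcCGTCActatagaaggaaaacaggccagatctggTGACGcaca
Hdac9 (chr12:34528890-34529039, minus strand): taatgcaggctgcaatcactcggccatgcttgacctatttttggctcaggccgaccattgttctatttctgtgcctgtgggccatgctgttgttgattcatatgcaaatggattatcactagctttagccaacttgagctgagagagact

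Among these 6 windows the GC box word is present in 5 and is absent from that of Hdac9, which holds none of the 8 words and has a GC content of 46.0%. The window of Furin is at the other end, with 86.0% GC. Over the 304 matched genes the median GC content was 68.7% (quartiles 62.0% to 74.7%), against 64.0% (58.0% to 70.7%) over 6559 matched eligible genes. The ratio of observed to expected CpG had a median of 0.844 in the selected genes and 0.805 in the eligible genes. Selected genes thus had upstream windows somewhat richer in G and C, with quartile ranges that overlap broadly.

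The GC box word, bound by factors of the Sp family, was in 212 of the 304 windows (69.7%), against 59.1% of eligible and 57.8% of all coding windows. It holds only G and C, so its higher share cannot be told apart from the higher GC content of these windows. The other words were at shares closer to those of eligible genes. CCAAT was in 28.9% against 31.1%, the ETS word in 14.8% against 19.5%, and TGACG in 24.3% against 22.4%. TATAAA was in 5 windows (1.64%, against 2.30%), that of Twist1 among them, and the YY1 word was in 1 window (0.329%, against 1.31%). The E box was in 7.24% against 6.86% and the NRF1 word in 4.93% against 4.44%. A match describes these letters only, and its absence says nothing of the factor.

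The m6A word GGACT was counted on the sense strand of the spliced transcripts. The selected genes held a median of 1.10 per kb, against 1.05 per kb in eligible genes. No GGACT was present in 4.18% of the selected transcripts, against 8.20% of eligible ones, and selected transcripts were longer (below).

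In the 2 control libraries the median index over the selected genes was 5.37 and 5.35, equal to ratios of 41.3 and 40.7. In KO1 the medians were 4.02 and 4.05, ratios of 16.2 and 16.6. In KO2 they were 3.95 and 3.92, ratios of 15.5 and 15.1. The replicates lay close together, with Pearson's r across the 502 genes of 0.975 in control and 0.984 in each knockout, where genes are not independent replicates. The coding genes in general were lower in the knockouts as well. Over the longest transcripts of all coding genes the library medians were 4.79 and 4.80 in control, 4.41 and 4.42 in KO1, and 4.24 and 4.23 in KO2.

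The median difference from control over the selected genes was -1.30 in KO1 (quartiles -1.53 to -1.11), which is 40.5% of the control ratio. In KO2 it was -1.42 (quartiles -1.64 to -1.22), or 37.3%. Over all coding genes the medians were -0.37 and -0.58, or 77.3% and 66.9% of the control ratio. Both comparisons use the same 2 control libraries. Of all coding genes, 45.3% had all 4 knockout values below both controls and 2.13% had all 4 above, and of eligible genes 46.2% had all 4 below.

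The shift of the coding genes' medians bears on how many genes pass a fixed margin and baseline. When each library was centred on its median over all coding genes, 70 of 10918 eligible genes (0.641%) met the rule, and all 70 were among the 502. In those 70 genes the median difference on the deposited scale was -1.66 in KO1 and -1.83 in KO2. The remaining selected genes did not meet the rule on the centred values. One of them, Twist1, kept a centred margin of 1.44 but its baseline fell under the limit of 2, and the rest had a centred margin under 0.8.

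The margin of 0.8 cuts through a continuous range. It was under 0.9 in 166 selected genes (33.1%), at least 1 in 215 and at least 1.5 in 17. Just inside were Tmtc4 at 0.802, Cnih1, a cargo receptor for export from the endoplasmic reticulum, at 0.801, and Ccdc14 at 0.801. Just outside were Usf3 at 0.7998, Crym at 0.7987 and Chmp2b, a subunit of the membrane-remodelling complex ESCRT-III, at 0.7986. A further 66 genes passed the margin but had a mean control index below 2, the nearest being Tsku at 1.99. The genes on either side of both thresholds are alike in size of difference.

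The widest margin was that of Dgkz (ENSMUSG00000040479), diacylglycerol kinase zeta, which converts diacylglycerol to phosphatidic acid. Its transcript lies on the minus strand of chromosome 2, from 91932826 to 91963657 in GRCm38, with 31 exons. Its index was 3.29 and 3.62 in control, 0.99 and 1.25 in KO1, and 1.24 and 1.23 in KO2. All 4 knockout values thus sat more than 2 units below the lower control. The difference was -2.34 ± 0.20 in KO1 and -2.22 ± 0.20 in KO2 (SE of the fit across genes, n = 2 per group), which is 19.8% and 21.5% of the control ratio.

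Furin (ENSMUSG00000030530) encodes a proprotein convertase that cleaves precursors in the secretory pathway, and its transcript lies on chromosome 7 from 80389194 to 80402762. It read 3.54 and 3.83 in control, 1.39 and 1.53 in KO1, and 1.30 and 1.03 in KO2, so that the knockout ratios were 21.4% and 17.4% of control. The knockout groups were close together and far from control.

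Lrrc8b, a subunit of volume-regulated anion channels, and Lpgat1, an acyltransferase of lysophospholipids, had high control values. Lrrc8b read 8.59 and 8.52 in control, 6.07 and 6.54 in KO1, and 6.09 and 6.58 in KO2. Lpgat1 read 9.04 and 9.57 in control, 7.16 and 7.12 in KO1, and 6.68 and 7.14 in KO2. In both genes the replicates of a knockout were up to 0.5 units apart, and KO1 and KO2 overlapped. Ctc1, a component of the CST complex at telomeres, read 8.90 and 8.48 in control, 6.76 and 6.50 in KO1, and 6.83 and 6.82 in KO2.

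Uxs1, which makes UDP-xylose for the linkers of proteoglycans, read 6.54 and 6.94 in control, 4.82 and 4.76 in KO1, and 4.79 and 4.73 in KO2. The 4 knockout values spanned less than the 2 controls did. Cemip2, a cell-surface hyaluronidase, read 5.98 and 6.21, then 4.30 and 4.35, then 4.04 and 4.17 in the same order. Asap2, a GTPase-activating protein for Arf proteins, read 6.58 and 6.44, then 4.84 and 4.59, then 4.70 and 4.54. The knockouts of both genes lay more than 1.5 units below the lower control.

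Qrich2 read 4.36 and 4.53 in control, 1.98 and 2.04 in KO1, and 2.39 and 2.57 in KO2, with both KO1 values below both KO2 values. Nkain1, a membrane protein that interacts with the sodium pump, read 8.40 and 8.35, then 6.16 and 6.71, then 6.78 and 6.19, and the knockouts overlapped. Further genes among the 20 with the widest margins were Rph3al, Hdac9, Cpm, Sapcd2, Lrp3, Gpr27, Cgrrf1, Abhd15 and Twist1, with margins from 1.48 to 2.00.

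The number of reads behind a single value is unknown. A value exactly equal to that of another gene in the same library occurred at least once in 156 selected genes (31.1%, against 28.6% of eligible genes), in 3 or more libraries in 35, and in all 6 libraries in 5. Twist1, a transcription factor of mesenchyme, is one of the 5. It read 2.00 and 2.59 in control, 0.002 and -0.32 in KO1, and -0.17 and 0.002 in KO2. Abhd15, at 2.26 and 2.82, 0.43 and 0.50, and -0.15 and 0.77, is another, and Gpr27, an orphan receptor, was tied in 5 libraries. In 30 selected genes the 2 controls were more than 0.8 apart. The widest such gap, in P3h4, put its controls at 3.58 and 6.38 against 2.49 and 2.26 in KO1 and 2.03 and 2.25 in KO2 (P3h4 was picked after its values were seen). Cgrrf1, a RING finger protein, had controls of 3.71 and 4.86 and knockout values from 2.01 to 2.18.

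**Figure D1:**
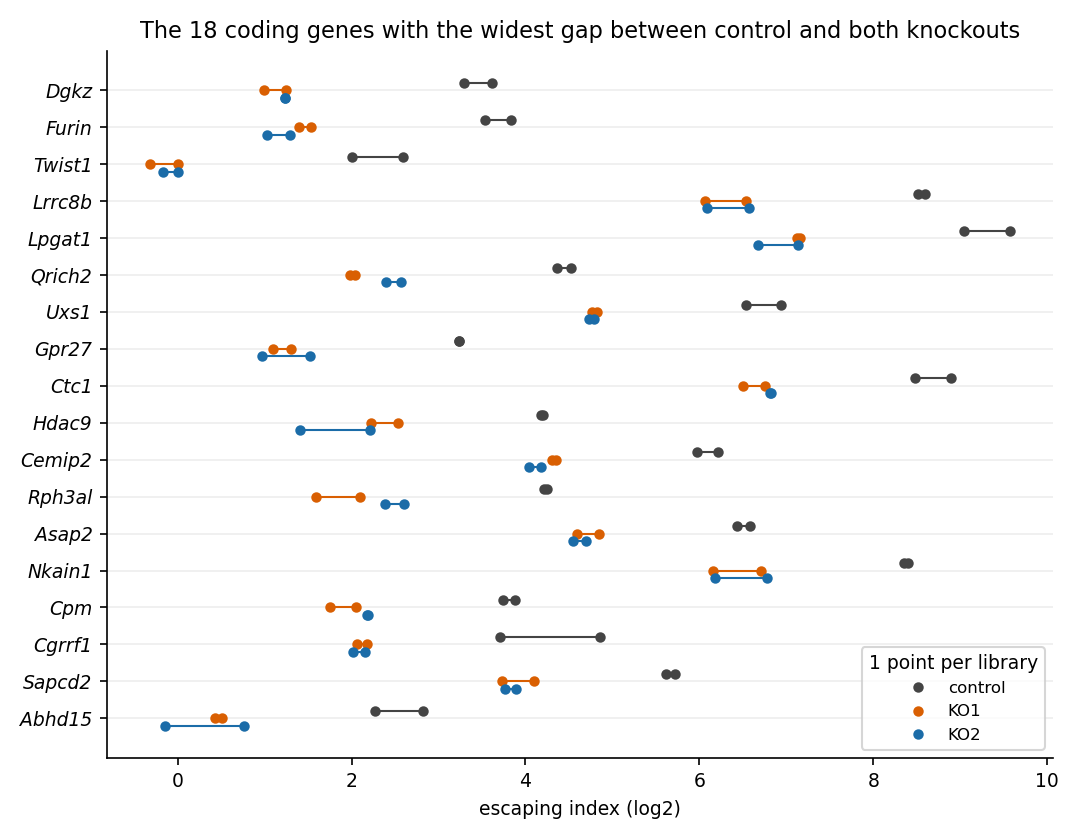
Escaping index (log2, horizontal axis) of the 18 selected genes with the widest margin (vertical axis), with 1 point per library, coloured by group. In every row the 4 knockout points lie to the left of both control points, as the selection rule requires, from Dgkz at the top of the order to Abhd15.

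The functions of the selected genes were counted with 23 gene lists. They held 114 of the 502 genes (22.7%) and 25.6% of the eligible genes, so 388 selected genes were in none. A list is read here against the 4.45% of eligible genes that were selected, without a test. No list took more than 7.14% of its eligible genes, and 4 lists had no selected gene.

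Membrane transport and channels were at the upper end. Of 210 eligible solute carriers 15 were selected (7.14%), with differences of -1.67 to -0.94 in KO1 and -1.80 to -1.15 in KO2. Slc48a1, a heme transporter, read 2.77 and 2.97 in control, 1.25 and 1.48 in KO1, and 1.45 and 1.38 in KO2. Slc36a4, a transporter of amino acids, read 4.80 and 4.93, then 3.50 and 3.19, then 3.62 and 3.22. The mitochondrial carriers Slc25a33, Slc25a15 and Slc25a51 and the zinc transporters Slc30a5 and Slc30a6 were also selected. None of the 15 met the rule after centring.

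Of 95 eligible ion channel subunits 6 were selected (6.32%): Cacna2d1, Gria4, Abcc8, Trpc1, Kcng3 and Kcnd2. Cacna2d1, an auxiliary subunit of voltage-gated calcium channels, read 5.70 in both controls, 4.29 and 4.05 in KO1, and 4.00 and 3.99 in KO2. Gria4, a subunit of AMPA-type glutamate receptors, read 5.22 and 5.49, then 3.92 and 3.88, then 3.45 and 3.34. Abcc8, the sulphonylurea receptor of potassium channels, read 4.18 and 4.37, then 2.89 and 2.69, then 2.80 and 2.76. These 3 met the rule after centring as well, whereas Trpc1 (margin 1.20), Kcng3 (0.966) and Kcnd2 (0.832) did not.

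Signalling and ubiquitin genes had shares of about the same size. Of 316 eligible protein kinases and phosphatases 19 were selected (6.01%), with differences of -1.77 to -0.91 in KO1 and -1.99 to -0.92 in KO2. Map3k20, a stress-activated kinase also called ZAK, read 7.56 and 7.35 in control, 5.95 and 5.73 in KO1, and 5.67 and 5.62 in KO2. Ppp3cc, a catalytic subunit of calcineurin, read 5.95 and 5.38, then 3.94 and 4.04, then 3.95 and 4.01. Map3k10 is an upstream kinase of the JNK pathway, and Map2k4 and Map2k7, which phosphorylate JNK, were selected too, as were the p38 activator Map2k3 and the receptors Erbb2 and Met. Of 332 eligible genes of the ubiquitin list 21 were selected (6.33%), with differences of -1.69 to -0.99 in KO1 and -1.97 to -1.09 in KO2. They include the F-box proteins Fbxl2, Fbxo10, Fbxl5, Fbxl15 and Fbxl20, the ligases Rnf41, Rnf146, Trim32, March2 and March5, and the proteases Usp33, Usp43 and Otud7a. Fbxo10 read 6.43 and 6.46, then 5.24 and 5.11, then 4.76 and 4.39, with KO2 below KO1. Btbd3 is in this list by its BTB domain name alone.

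Small GTPases and their regulators gave 10 of 214 (4.67%), close to the 4.45% of all eligible genes. Arhgef16, a guanine nucleotide exchange factor, had a difference of -2.56 ± 0.50 in KO1 and -2.21 ± 0.50 in KO2 (SE, n = 2 per group), but its controls were 5.37 and 6.86. The GTPase Rhoa itself, which controls the actin cytoskeleton, read 8.08 and 7.70 in control, 6.74 and 6.56 in KO1, and 6.23 and 6.17 in KO2. Rhoq, Rab17, Rasa2 and Rasa3 were also selected.

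Smaller groups held a few genes each. The cilium list had 3 of 53 (5.66%), all of the transition zone: Tctn3, Tctn1 and Tmem216. Tctn1 read 6.80 and 6.51 in control, 4.82 and 5.24 in KO1, and 5.41 and 5.08 in KO2, and Tmem216, near the baseline limit, read 2.23 and 2.04, then 1.04 and 0.73, then 0.89 and 1.20. Chaperones had 3 of 56 (5.36%), the J-domain proteins Dnajb5 and Dnajc1 and the Hsp70 cofactor Bag1. Lipid metabolism had 3 of 65 (4.62%), the fatty acid elongases Elovl7 and Elovl4 and the acetate-activating enzyme Acss1. Genes named Tmem had 7 of 152 (4.61%). All of these shares were within a few genes of the 4.45% over eligible genes.

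In the cell cycle list 3 of 80 were selected (3.75%). Aurkb, the kinase of the chromosomal passenger complex, read 4.57 and 4.49 in control, 3.24 and 3.05 in KO1, and 2.91 and 2.92 in KO2. Plk4, the kinase that starts centriole duplication, read 5.23 in both controls, 3.92 and 4.17 in KO1, and 3.83 and 3.82 in KO2. Rbl2, a pocket protein of the retinoblastoma family, had a margin of 0.827. In DNA repair 2 of 72 were selected (2.78%). One of them, Bard1, the partner of BRCA1 in homologous recombination, read 7.54 and 7.67, then 6.02 and 6.21, then 5.65 and 5.62. Both KO2 values of Bard1 lay below both KO1 values.

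Autophagy had 2 of 56 (3.57%), Wipi1 and Ulk2, and the mitochondrial ribosome and respiratory chain had 4 of 139 (2.88%), Mrpl4, Mrps35, Atp5s and Ndufs3. Adhesion and matrix genes had 3 of 128 (2.34%), among them Col7a1, the collagen of anchoring fibrils, at 2.38 and 2.49, 0.69 and 0.79, and 1.00 and 0.79. Chromatin regulators had 2 of 90 (2.22%). One was the H3K9 methyltransferase Setdb1, at 7.08 and 6.99, then 5.89 and 6.05, then 5.76 and 5.59. The other was the histone acetyltransferase Kat2a, at 3.68 and 3.45, then 2.13 and 2.18, then 2.27 and 2.55. Neither met the rule after centring.

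Of zinc finger factors 9 of 391 were selected (2.30%). The lowest shares above 0 were in splicing factors and RNA helicases, with 2 of 154 (1.30%, Hnrnph3 and Ddx11), motors, with 1 of 86 (1.16%, Myo19), and the cytosolic ribosome and translation factors, with 1 of 130 (0.769%). That last gene, Eif5a2, a paralogue of the elongation factor eIF5A, read 4.51 and 4.50 in control, 3.07 and 3.20 in KO1, and 2.74 and 2.62 in KO2. Zfp318 had the widest margin of the zinc finger genes, at 6.73 and 7.15, then 5.17 and 5.24, then 5.20 and 5.32. No gene was selected of 39 eligible homeobox factors, 25 pluripotency factors, 22 p53 targets or 19 m6A factors. Over the 29 measured genes of the pluripotency list, eligible or not, the median differences were -0.04 in KO1 and -0.40 in KO2. Over the 20 measured genes of the m6A list they were -0.26 and -0.46. For these 4 lists the 4.45% of all eligible genes would be fewer than 2 genes each.

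**Figure D2:**
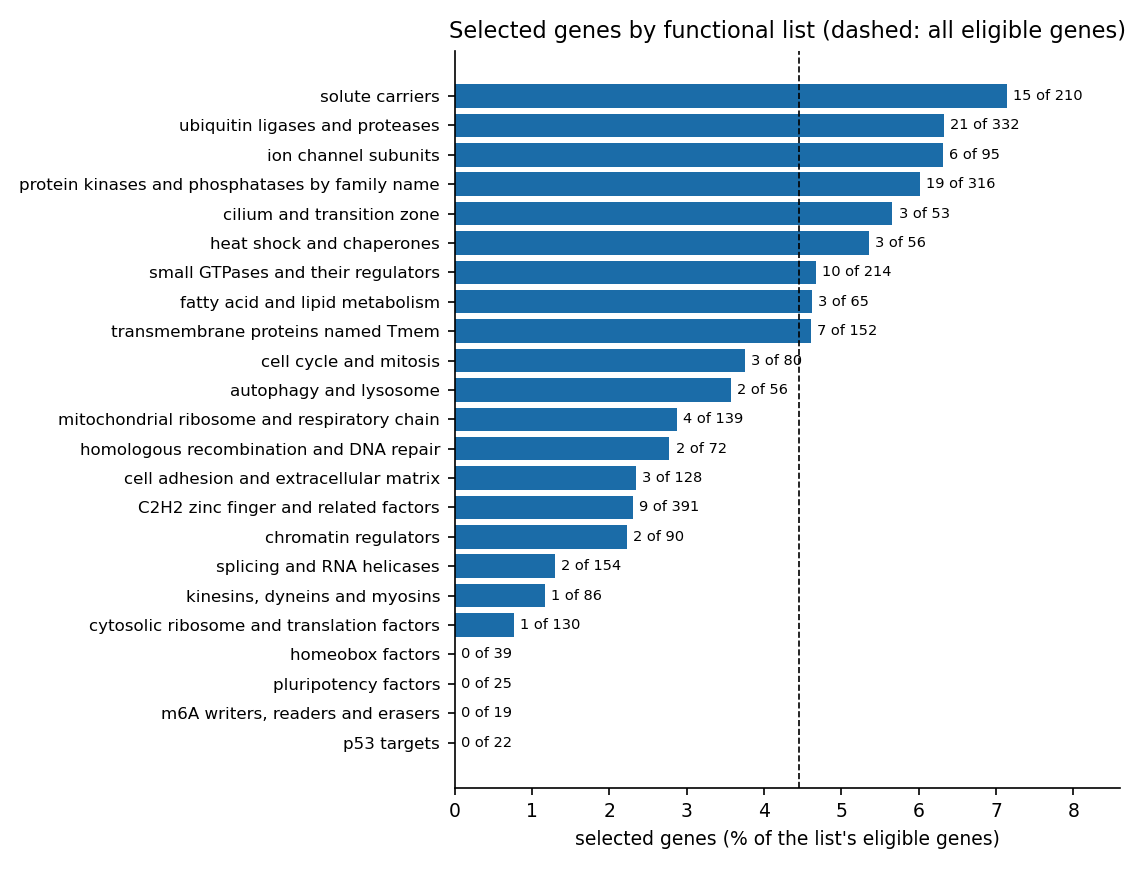
Share of the eligible genes of each gene list that met the selection rule (%, horizontal axis), with the counts of selected and eligible genes beside each bar. The vertical line marks the 4.45% of all eligible genes, and the bars run from solute carriers at 7.14% down to 4 lists at 0.

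By length, the selected transcripts spanned a median of 31916 bases of genome (quartiles 14176 to 68148), against 26766 in eligible genes and 22387 in all coding genes. The spliced length had a median of 3352.5 bases, against 3088 in eligible genes, and the exon number 10 against 9. First exons had a median of 257 bases against 211, and first introns 5588 against 4284. Each of these medians was higher in the selected genes, and the quartile ranges overlapped. The extremes were Ctnnd2, a catenin of neuronal junctions, with 856749 bases, and Foxh1, a partner of Smad proteins in Nodal signalling, with 1724. Ctnnd2 read 7.93 and 8.19 in control, 6.75 and 6.35 in KO1, and 6.87 and 5.84 in KO2, while Foxh1 read 2.36 and 2.06, then 1.21 and 1.18, then 0.73 and -0.03.

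The share of eligible genes selected did not follow length in one direction. It was 3.91% under 5 kb, 4.13% from 5 to 10 kb and 3.20% from 10 to 20 kb. It was 4.73% from 20 to 50 kb, 5.55% from 50 to 100 kb, 5.48% from 100 to 200 kb and 4.17% over 200 kb. The median difference among the selected genes of these classes stayed between -1.45 and -1.27 in KO1 and between -1.50 and -1.36 in KO2. After centring, the highest share was again in the class from 50 to 100 kb, at 1.12%.

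The baseline, which is part of the rule, was a median of 5.36 in the selected genes and 5.16 in eligible genes. The share selected was 3.04% at a mean control index of 2 to 3, 4.71% at 5 to 6 and 6.50% at 8 and over. The highest baselines were in Xpo4, an exporter of proteins from the nucleus, Mdm4, an inhibitor of p53, and Tns1, a focal adhesion protein. Mdm4 read 9.93 and 10.09 in control, 8.85 and 8.87 in KO1, and 9.06 and 8.77 in KO2. The lowest were in Dmrtb1, Ccdc107 and Tmeff2, with Tmeff2 at 1.93 and 2.26, then 1.06 and 1.03, then 0.97 and 0.89. Selected genes had baselines from 2.06 to 10.2, while the highest eligible gene was at 13.3.

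**Figure D3:**
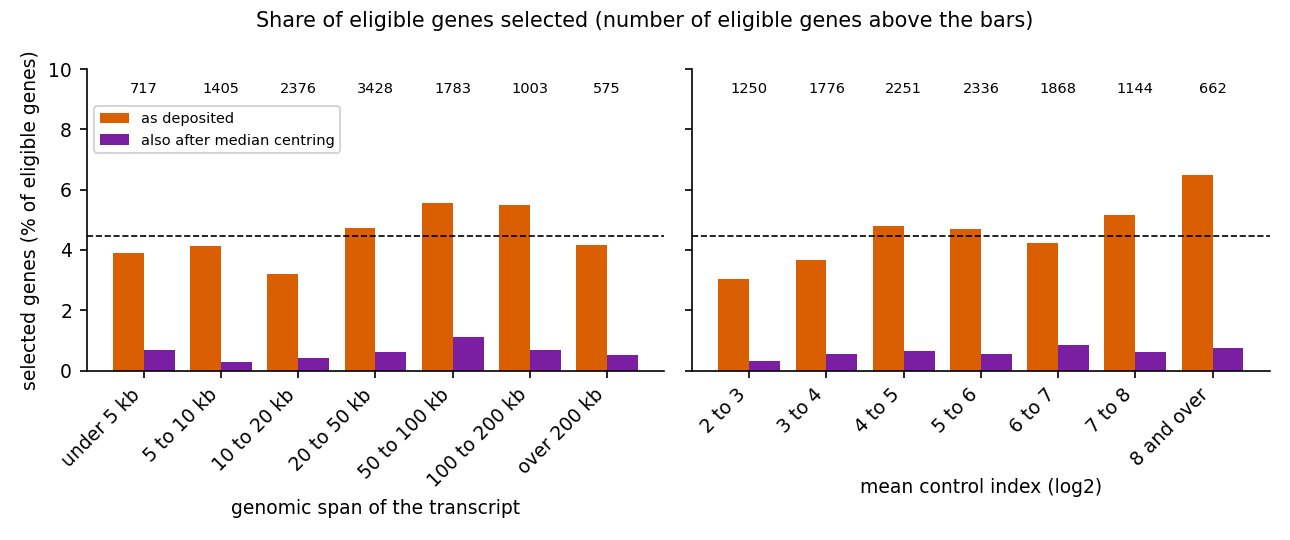
Share of eligible genes selected (%, vertical axis) by genomic span (left) and by mean control index (right), for the deposited values and after median centring, with the number of eligible genes above each pair of bars and a dashed line at the 4.45% of all eligible genes. On the deposited values the share lies between 3.20% and 5.55% over the span classes and rises from 3.04% in the lowest to 6.50% in the highest baseline class, with intermediate classes not in strict order.

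Most selected genes have other annotated transcripts, and their differences are given here by the distance of their start. In 448 of the 502 genes there were 2191 other transcripts in the table, and the remaining 54 genes had 1. Transcripts that start within 100 bases of the selected one (778 in 313 genes) had median differences of -1.14 in KO1 and -1.28 in KO2, and 97.4% of them had all 4 knockout values below both controls. At over 100 and up to 1000 bases (423 transcripts) the medians were -0.51 and -0.49, and the share was 48.5%. At more than 1000 bases (990 transcripts in 318 genes) they were 0.02 and -0.01, and the share was 10.8%. These transcripts share reads with the selected one, and those near its start share most, so they are not independent measurements. The genes were selected by the index at this start, so the contrast of near with far starts in them is partly built in. Whether the far starts are used in these cells was not tested.

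Eligible genes that were not selected had the same order at a smaller size. Their other transcripts had medians of -0.34 and -0.52 within 100 bases, -0.20 and -0.30 at over 100 and up to 1000 bases, and 0.02 and 0.01 farther away. All 4 knockout values lay below both controls in 48.1%, 30.5% and 11.3% of them, in the same order of distance. Beyond 1000 bases the share in selected genes (10.8%) was thus about that of other eligible genes. Far starts also had lower control values (median 1.82 in selected genes). Among the 469 far transcripts of selected genes with a mean control index of at least 2, the medians were -0.09 and -0.08. All 4 knockout values lay below both controls in 14.7% of these, against 14.8% in eligible genes that were not selected.

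**Figure D4:**
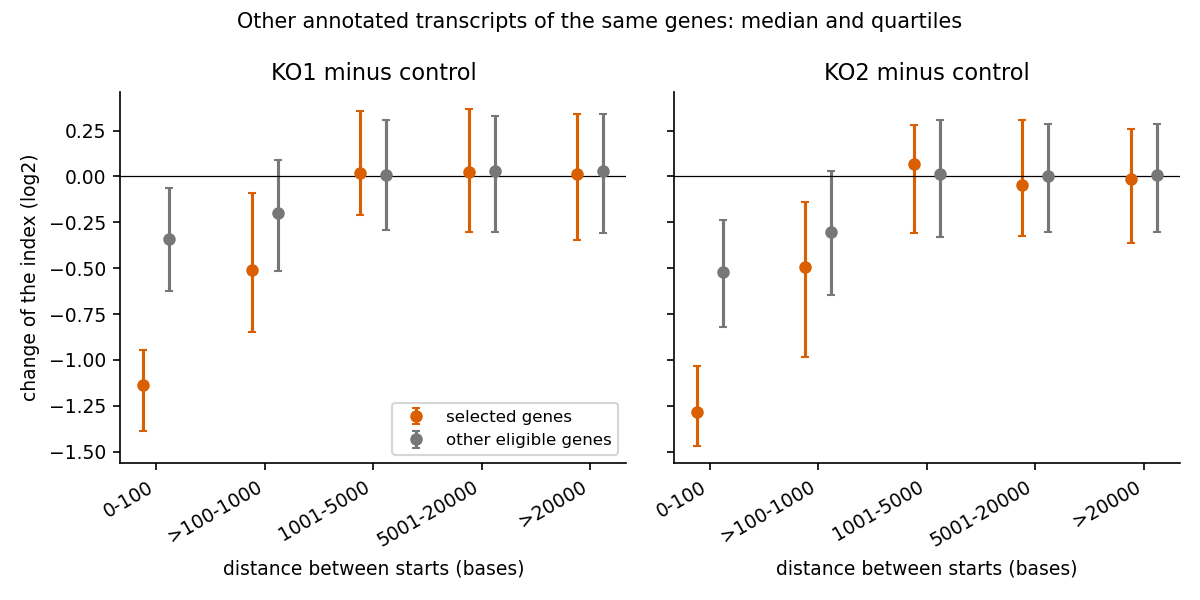
Change of the index against control (log2, vertical axis) in other annotated transcripts of the same genes, by distance of their start from the start of the selected transcript (horizontal axis), with points at medians and bars at quartiles, for KO1 (left) and KO2 (right). In selected genes the median goes from -1.14 and -1.28 within 100 bases to near 0 beyond 1000 bases, and other eligible genes go from -0.34 and -0.52 to near 0.

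Transcripts that share the start but reach different distances into the gene had differences of like size. Of transcripts with the same start (within 100 bases), 32 reached less than 10% of the selected span, with a median span of 1655.5 bases, and had median differences of -0.97 in KO1 and -1.15 in KO2. The 161 that reached 10 to 50% had -1.15 and -1.29, and the 557 that reached 50% or more had -1.14 and -1.27. A further 28 same-start transcripts, in 24 genes, had values identical to the selected one. They are left out of these classes but are among the 778 above, where they repeat the selected measurement. The control index itself was lower for short transcripts, with medians of 1.15, 3.59 and 5.04 in these classes. The shortest class thus lay nearest to 0, by less than 0.2 units, while its baseline was the lowest by far.

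Single genes show the same arrangement. Uxs1 has 6 other transcripts that start within 59 bases, with differences of -2.02 to -1.82 in KO1 and -1.97 to -1.80 in KO2. One that starts 784 bases downstream read 4.19 and 4.38 in control, 4.27 and 4.77 in KO1, and 4.06 and 4.10 in KO2, and its groups overlapped. In Aurkb 3 transcripts that start within 43 bases had differences of -1.68 to -1.40 in KO1 and -1.78 to -1.59 in KO2, whereas those at 2330 and 2922 bases had 0.02 and 0.49 in KO1 and 0.16 in KO2 for both. In Asap2 a transcript starting 8 bases away had -1.81 and -1.89, and one starting 206 bases downstream had 0.41 and 0.28.

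In Dgkz no other transcript began near the selected start. Those beginning 1930 and 1943 bases upstream had differences of 0.41 and 0.00 in KO1 and 0.24 and 0.19 in KO2, while a coding transcript beginning 13230 bases downstream read 3.35 and 3.08 in control, 2.26 and 2.24 in KO1, and 2.74 and 2.55 in KO2. In Slc12a8, a member of the cation-chloride cotransporter family, the 3 other transcripts began 950 to 1208 bases downstream and had differences of 0.10, 0.17 and -0.25 in KO1 and -0.05, 0.36 and -0.56 in KO2. At the other starts of Slc12a8 the differences were thus nearer to 0 than at the selected one, and in Dgkz the coding start farther downstream also had all knockout values below both controls.

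Neighbouring and overlapping genes could share reads with the selected ones, since none of the sources used here says whether counting used strand. Another annotated gene overlapped 253 of the 502 (50.4%, against 53.1% of eligible genes), and another coding gene overlapped 105 (20.9%, against 21.7%). A coding or other gene began head to head within 1 kb in 94 (18.7%, against 21.2%). Pairs in which both genes were selected were few: Poldip2 with Tmem199, Myo19 with Pigw, and Dcakd with Nmt1 head to head, and Cnot7 with Zdhhc2 by overlapping spans.

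For 45 selected genes the head-to-head partner was a coding gene that was not selected. The partners had median differences of -0.27 in KO1 and -0.43 in KO2, against -1.26 and -1.33 in the selected genes of the same pairs. Of the 45 partners, 15 (33.3%) had all 4 knockout values below both controls, against 45.3% of all coding genes. That 45.3% includes the selected genes, which all meet it by the rule, whereas the partners exclude them. The partner of Rnaseh2a, a ribonuclease H2 subunit at -1.53 and -2.12, is the peroxidase Prdx2, at 0.05 in both knockouts. Other partners did fall. Kif1c, the partner of Inca1 (-2.07 and -1.69), was at -1.17 and -1.45. Gm9903, the partner of Fam53a (-1.07 and -1.15), was at -1.98 and -1.65, with a mean control index of 1.09. These pairs were picked after their values were seen. Selected genes were on every autosome, and 8 were on the X chromosome (1.59%, against 3.20% of eligible genes).

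The last comparison set KO1 against KO2. The rule asks both to lie below control and does not ask which is lower. As it still limits how far apart they can be, lower counts of differences in the selected genes are no result about agreement. With limma over all 12974 coding genes and Benjamini-Hochberg adjustment, 0 of the 502 genes and 0 of all coding genes (0%) had an adjusted p under 0.05. The smallest adjusted p was 0.125. At an unadjusted p under 0.05 there were 56 selected genes (11.2%), against 20.5% of all coding genes. KO1 was higher in 40 of the 56 and lower in 16. Of all coding genes, 2205 (17%) had KO1 higher at that threshold and 459 (3.54%) had it lower. The median half-width of the unadjusted 95% interval was 0.51, and the adjusted test is stricter than that interval. In simulated data 3% of changes of 1 and 49.6% of changes of 2 were called. Only a small part of the genes was changed there and the others had equal means, so the power in these data may differ. A difference over 0.5 was seen in 62 of the 502 selected genes and in 4098 of the 12974 coding genes. All of these were uncalled, so a count of 0 does not show that the knockouts act alike.

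The index was on balance slightly higher in KO1. The mean of KO1 was above that of KO2 in 322 of the 502 genes (64.1%), against 67.6% of all coding and 67.5% of eligible genes, with a median difference of 0.10 in the selected genes and a range from -0.95 to 1.00. That balance depended on the scaling: after median centring the median over the selected genes was -0.08. Its cause was not tested. Both KO1 values were above both KO2 values in 191 genes (38.0%, against 41.8% of all coding genes) and below them in 76 (15.1%, against 13.3%). In 283 genes (56.4%) the 2 knockouts were within 0.25 of each other, against 38.4% of all coding genes. As the rule limits this distance, the higher share is no result about agreement of the knockouts.

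**Figure D5:**
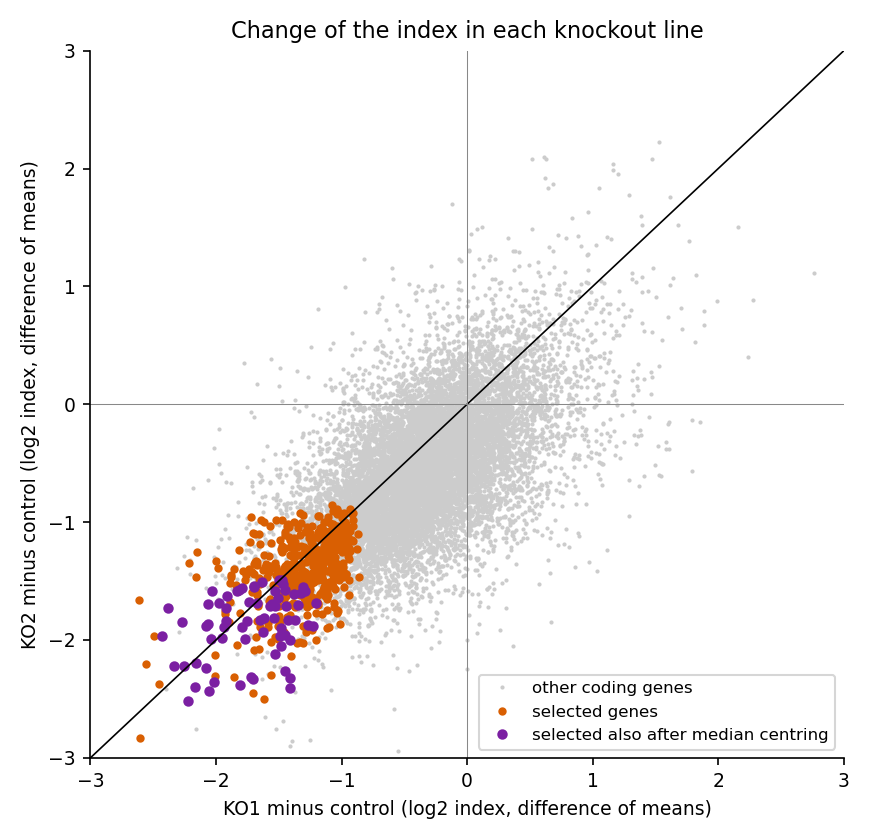
Difference of the index from control in KO1 (horizontal axis) and KO2 (vertical axis), both log2, with 1 point per coding gene, the selected genes in orange, those that also met the rule after centring in purple, and a diagonal line of equal differences. The selected genes fill the lower left, as the rule requires values at least 0.8 below control. Their highest difference was -0.858 in each knockout, and the 2 axes share the same control libraries.

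The genes with the smallest p for a higher KO1 were Add1, Cntln, Tctn3, Arvcf and Slc12a8. Add1, the alpha subunit of adducin in the spectrin skeleton, read 6.77 and 6.65 in control, 5.33 and 5.26 in KO1, and 4.25 and 4.35 in KO2. KO1 was higher than KO2 by 1.00 ± 0.16 (SE; 95% interval 0.59 to 1.40; limma adjusted p = 0.125), and its KO2 ratio was 18.8% of control against 37.5% in KO1. Transcripts of Add1 that start up to 209 bases away had the same order, with differences from control of -1.66 to -1.14 in KO1 and -2.35 to -2.11 in KO2, but with the longest spliced transcript KO1 minus KO2 was 0.28 (limma adjusted p = 0.550), and with the mean over coding transcripts 0.55. Cntln, a centrosome protein, read 5.41 and 5.46, then 4.07 and 3.99, then 3.12 and 3.10, a KO1 to KO2 difference of 0.92 ± 0.16 (interval 0.53 to 1.30) that was 0.30 with the mean over coding transcripts.

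Tctn3 read 6.55 and 6.68 in control, 5.39 and 5.44 in KO1, and 4.77 and 4.46 in KO2 (0.80 ± 0.18). Arvcf, a catenin of the p120 family, read 6.79 and 6.84, then 5.67 and 5.88, then 5.12 and 4.97 (0.73 ± 0.17, and 0.40 with the mean over coding transcripts). Slc12a8 read 5.28 and 5.07, then 4.22 and 4.06, then 3.44 and 3.39 (0.72 ± 0.17). In all 5 genes both KO2 values lay below both KO1 values, and none passed the adjusted threshold. Their choice by the smallest p favours such a separation, and intervals away from 0. With the longest transcript by spliced length, the difference in Slc12a8 was -0.19 (limma adjusted p = 0.752), so its order depended on the transcript chosen, and with the mean over coding transcripts it was 0.25.

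A lower KO1 had its smallest p in Cpe, Zfp654, Lrrc61, Sntb1 and Zfp365. Cpe, a carboxypeptidase that trims prohormones, read 4.06 and 4.19 in control, 2.30 and 2.51 in KO1, and 3.19 and 3.14 in KO2, a difference of -0.76 ± 0.17 (SE; interval -1.19 to -0.33; limma adjusted p = 0.136). Zfp654 read 4.63 and 4.61, then 2.98 and 3.03, then 3.52 and 3.73 (-0.62 ± 0.17). Sntb1, a syntrophin of the dystrophin complex, read 8.44 and 8.26, then 6.04 and 6.24, then 7.30 and 6.71 (-0.87 ± 0.25). Its difference was -0.53 with the mean over coding transcripts and -0.57 without the first KO2 library. Lrrc61 differed by -0.90 ± 0.25 (-0.60 without the first KO1 library) and Zfp365 by -0.53 ± 0.16. In these 5 genes both KO1 values lay below both KO2 values, which their choice by p likewise favours, and again none passed the adjusted threshold.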

How the data were processed

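The deposited table holds an escaping index per Ensembl transcript, made by the authors as log2 values, for 68473 transcripts in 6 libraries. Per the submitters' processing notes, the software was HISAT2 2.1.0, featureCounts, Trimmomatic 0.38 and CASAVA, on build mm10. No source used here gives their roles, the index windows or the use of strand. Identifiers were matched without version to GENCODE M21, and 68397 matched. One transcript per gene was used, the longest by genomic span. Values were used as deposited. The members and the 23 lists were chosen with earlier results of these data known, and the ribosomal list's name pattern was corrected after it was seen to take a kinase. KO1 and KO2 were compared with limma 3.58.1 (R 4.3.3; 3 groups, trend, two-sided) over 12974 genes. Residual degrees of freedom were 3, and the prior added 2.68. On simulated data for this comparison over 12974 genes, 3% of changes of 1 and 49.6% of changes of 2 were recovered, and 8 of 271 calls over 5 runs were false. A small part of the genes was changed in each run, and the others had the same mean in all groups. The depth is unknown, so no counting interval is given. Python 3.11.15 and pandas 2.3.3 were used for descriptions. Named genes were the 20 widest margins, the 5 smallest p per direction in KO1 against KO2, up to 4 widest margins per list, 3 genes on each side of the margin, and 3 at each end of span and baseline. Genes named as examples of a list or of other starts are outside this rule and were chosen after their values were seen, and a few genes that the rule takes are not reported here. Alternatives were scaling, offset, transcript choice, filters, a replicate block and leaving out each library. A block on replicate number was an alternative only, since same-numbered libraries did not deviate together (correlations between -0.009 and 0.008).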

Additional observations from a re-analysis of the deposited data

How the results depend on the processing

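The number of genes that met the rule (502) was 70 after median centring and 70 after quantile normalization, 287 with an offset of 4, 297 with the mean over coding transcripts (269 shared), 1052 at a margin of 0.6 and 215 at a margin of 1.0. Leaving out 1 library in turn gave 594 to 1309, with 1309 without the first control and 1236 without the second. A rule over fewer libraries is easier to meet. The median KO1 minus KO2 difference over the selected genes (0.10) was -0.0755 after centring, -0.0921 after quantile normalization, 0.0774 with an offset of 4 and 0.095 to 0.116 with a library left out. The median span of eligible genes was 26766 bases and that of all coding genes 22387. In Slc12a8 KO1 minus KO2 was -0.19 with the longest spliced transcript, and the cause was not tested. The other 159 of 160 alternative values for the 10 genes named for KO1 against KO2 kept their direction, but several changed in size. Much of this was fixed in advance. The filter, the replicate block, the fit without trend, the knockouts fitted alone and leaving out a control return the main difference unchanged. The 10 genes were also picked for the smallest p in this contrast. With the mean over coding transcripts Add1 was 0.55, Cntln 0.30, Arvcf 0.40, Slc12a8 0.25 and Sntb1 -0.53, with the longest spliced transcript Add1 was 0.28, and with an offset of 4 Cpe was -0.48. No gene was called between KO1 and KO2 by limma under any setting, with a smallest adjusted p between 0.117 and 0.354 in the selected genes. With the replicate block it was 0.187, with 0 called and 50 selected genes at an unadjusted p under 0.05. With 2 libraries per group and few genes changed, simulated KO1 to KO2 changes of 1 were called for 3% of genes. Differences of that size were mostly not resolved there, and the power in these data may differ.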
